A study of Mus musculus with 18 samples.

Results

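Mouse CD8+ T cells that carried a scrambled control guide were compared after an overnight culture with 50 µM lithocholic acid (LCA) and after one without it. Of the 18 RNA sequencing libraries of the series, 6 make up this comparison, chosen by their labels: 3 without LCA (control) and 3 with 50 µM (LCA50). Every gene with enough counts was described, 11651 of the 24537 listed. All groups began as naive CD8+ T cells that were given CRISPR ribonucleoprotein and then activated with antibodies to CD3 and CD28, so no unactivated or unedited cells enter. Cells with the scrambled guide bear the label WT, and cells given a guide kit against Nr4a1, the gene of the nuclear receptor Nur77, bear the label KO. Cells of both labels were also kept with 10 µM LCA (LCA10). The labels give no strain, sex or age of the mice and do not say whether replicates came from separate animals or cultures. The p-values therefore rest on the variation among these libraries alone, part or all of which may be technical. RNA went into an ultra-low input cDNA library, and libraries were numbered group by group.

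LCA is a secondary bile acid that gut bacteria make from a primary one, and the membrane receptor Gpbar1 and the vitamin D receptor Vdr are known to bind it. Activated CD8+ T cells take up more amino acids, turn to fast glycolysis and lose the receptors with which naive cells enter lymph nodes. When amino acids run short or the endoplasmic reticulum is stressed, kinases that phosphorylate eIF2 raise the translation of ATF4, a transcription factor for genes of amino acid uptake, amino acid synthesis and tRNA charging. Sterol regulatory element binding proteins (SREBPs) and liver X receptors set the genes of lipid synthesis and sterol export.

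The 6 libraries held 4340061 to 5012088 counts and 15032 to 17518 genes with a count. Levels are given as CPM, TMM-scaled counts relative to a library total of 1e+06. The 9 measured markers of CD8 T cells summed to 5030 to 5150 CPM in control and 4270 to 4850 CPM in LCA50. These sums did not overlap, and 2 of the markers, Cd8b1 and Cd3g, were called lower. The 4 markers of CD4 T cells summed to 12.5 to 17.9 CPM in control and 20.6 to 25.6 CPM in LCA50, the 6 of B cells to 6.77 to 12.4 CPM and 8.81 to 8.99 CPM, and the 4 of NK and gamma delta T cells to 9.09 to 11.2 CPM and 8.77 to 11.6 CPM. The CD4 T cell sums did not overlap between groups either. Of these 14 genes 4 passed the count filter, and none of the 4 was called. Cd4 stood at 1.28 CPM or less and Pax5, Klra8, Klrb1c and Ncr1 at 0.824 CPM or less, and most of the 3 sums came from Foxp3, Cd79b and Fcer1g. The 13 myeloid markers summed to 47.8 to 83.8 CPM in control and 48.8 to 56 CPM in LCA50. Of these, 3 neutrophil genes (Ngp, S100a8 and S100a9) were called lower and had 0 counts in LCA50 replicates 1 and 3; none of the 3 was called with the background described next as a term of the model. The part of these cell types in the results was not tested. Olfactory, vomeronasal and trace amine receptor genes, which T cells should not express, were summed as a measure of library background. They took 79.5, 108 and 50.4 CPM in control replicates 1, 2 and 3 and 121, 139 and 223 CPM in LCA50 replicates 1, 2 and 3. All 3 LCA50 libraries lay above all 3 controls (exact two-sided permutation test, p = 0.1, the smallest that 3 against 3 allows). Counts are therefore given below also with this background as a term of the model and without LCA50 replicate 3, the library that held most of it. In bulk RNA, fewer cells of a type and less RNA per cell cannot be told apart.

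Nr4a1 (chromosome 15, 101253902 to 101274795, GRCm38) is the target of the guide in the KO cells and was left intact by design here. It measured 11.4, 11.6 and 5.87 CPM in control and 18, 14.9 and 7.9 CPM in LCA50. The groups overlapped, and the log2 fold change of 0.51 ± 0.33 (± standard error, edgeR's quasi-likelihood test, Benjamini-Hochberg adjusted p = 0.387) was not called. In KO-labelled cells it measured 12.1, 7.73 and 12 CPM without LCA and 15.7, 7.53 and 7.07 CPM with 50 µM. Counts over the whole gene do not show a small edit, so they do not check the KO label.

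LCA at 50 µM changed 1000 genes, 8.58% of those tested, at an edgeR adjusted p below 0.05; such genes are called, and are said to have risen or fallen. Of these, 426 rose (3.66% of genes tested) and 574 fell (4.93%). Most changes were small: 595 of the called genes moved less than 1.5-fold, 69 rose and 77 fell at least 2-fold, and the median size was 0.506 on the log2 scale. The median change over all tested genes was 0.01. Calls were more common among abundant genes, at 16.4% of 2913 genes with 88.3 CPM or more and 3.19% of 2913 genes with 9.8 CPM or less, whose median standard errors were 0.0895 and 0.461. The 3 LCA50 libraries lay wholly above the 3 controls in 1532 genes (13.1%) and wholly below them in 1594 (13.7%), called or not. Among called genes this held for 416 of the 426 that rose and 563 of the 574 that fell. Genes named as leading the whole comparison, by p or by size of change, were chosen only among genes without overlap. With background as a term 272 genes were called (2.33%), 135 of them higher (1.16%) and 137 lower (1.18%), and 235 were among the 1000. Without LCA50 replicate 3, 216 genes (1.82%) rose and 306 (2.58%) fell. Without LCA50 replicate 2 the calls numbered 533 and without control replicate 3 they numbered 664.

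**Figure D1:**
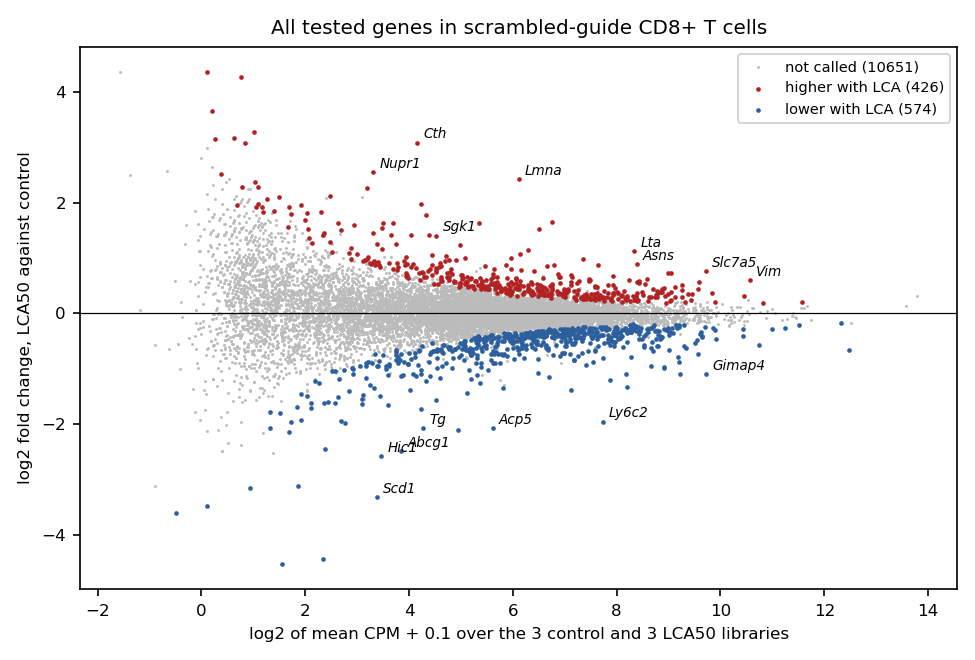
Log2 fold change of LCA50 against control for every tested gene (vertical axis) against the log2 of its mean CPM plus 0.1 over the 6 libraries (horizontal axis). Red points are the 426 genes called higher, blue points the 574 called lower and grey points those not called; most called genes lie within 1 log2 unit of 0.

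Gimap3, a GTPase of the lymphocyte GIMAP family (chromosome 6, 48764464 to 48770851), had the smallest p. It measured 564, 519 and 509 CPM in control and 301, 268 and 261 CPM in LCA50. Every LCA50 library lay below every control, and the level was 1.92-fold lower (log2 -0.94 ± 0.07, edgeR adjusted p = 1.25e-10). Acp5, an acid phosphatase of lysosomes (chromosome 9, 22126727 to 22135746), measured 82.2, 71.5 and 82.5 CPM in control and 21, 19.3 and 15.8 CPM in LCA50. Its groups were far apart, with LCA50 4.2-fold lower (-2.07 ± 0.17, edgeR adjusted p = 4.51e-10).

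Among genes that rose, Slc7a5 had the smallest p. It encodes the light chain of the large neutral amino acid exchanger LAT1 (chromosome 8, 121881146 to 121907686) and measured 628, 612 and 634 CPM in control and 937, 1143 and 1101 CPM in LCA50, 1.7-fold higher. Its partner chain Slc3a2 (chromosome 19, 8706882 to 8723369) measured 379, 364 and 412 CPM in control and 614, 658 and 642 CPM in LCA50, 1.66-fold higher. For both chains all LCA50 libraries stood above all controls, at log2 changes of 0.76 ± 0.07 and 0.73 ± 0.07 (edgeR adjusted p = 7.64e-10 and 2.89e-08).

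Lmna, which encodes lamins A and C of the nuclear lamina (chromosome 3, 88481148 to 88509932), measured 16.7, 21 and 27.1 CPM in control and 109, 120.3 and 121 CPM in LCA50. The treated libraries were all far above the controls, 5.39-fold higher (2.43 ± 0.25, edgeR adjusted p = 2.47e-05). The intermediate filament gene Vim measured 1175, 1181 and 1251 CPM in control and 1739, 1856 and 1856 CPM in LCA50 (0.60 ± 0.06, edgeR adjusted p = 4.86e-08). Mov10, an RNA helicase, measured 133, 141 and 148 CPM in control and 242, 284 and 250.2 CPM in LCA50, 1.84-fold higher. Neither gene had overlapping groups.

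The 12 genes with the smallest p in the upward direction also held the glycerol and water channel Aqp9 (2.2-fold), the kinase Sgk1 (2.65-fold), the growth arrest gene Gadd45g (1.98-fold), the costimulatory receptor Tnfrsf9 (1.65-fold), the cytoskeletal linker Plec (1.59-fold) and Stk40 (1.65-fold). Sgk1 measured 13.4, 12.4 and 11.9 CPM in control and 34.8, 33.8 and 31.4 CPM in LCA50, with narrow groups far apart. In the downward direction stood the membrane protein Ms4a6b (1.61-fold), the thyroglobulin gene Tg (4.2-fold), the cyclin Ccng2 (2.11-fold), Trpc4ap (1.53-fold), the single-stranded DNA binding protein Nabp1 (1.59-fold), the adaptor Sla, which restrains T cell receptor signalling (1.9-fold), and the transferrin receptor Tfrc (1.58-fold). Tg measured 33, 30.1 and 29.5 CPM in control and 8.37, 5.42 and 8.36 CPM in LCA50, every treated library being low. The span of Sla (chromosome 15, 66780819 to 66831829) lies within that of Tg (chromosome 15, 66670754 to 66850721), and no source used here says whether reads were counted by strand, so reads of these genes may not be separable. The 12 genes with the smallest p in each direction were all called with background as a term and without LCA50 replicate 3.

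Among the genes with the largest changes were several of low abundance. The glycosyltransferase B4galnt4 measured 5.78, 5.79 and 5.26 CPM in control and 17.6, 14.7 and 16.9 CPM in LCA50 (2.91-fold higher), and the transcription factor Mycn measured 5.16, 7.79 and 5.87 CPM and 14.2, 23.5 and 20.6 CPM (3.08-fold higher). Ifit1bl1, of the interferon-induced IFIT family, measured 48.5, 51.3 and 49 CPM in control and 16.9, 8.04 and 9.48 CPM in LCA50 (4.32-fold lower), and Itih5 was 3.31-fold lower. Of abundant genes, Plac8 was 1.96-fold lower and the cell cycle kinase Cdk6 1.54-fold higher. None of these genes had overlapping groups, and Cdk6 alone among them lost its call with background as a term, while Ifit1bl1 was called at a log2 change of -1.47, from -2.11.

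**Figure D2:**
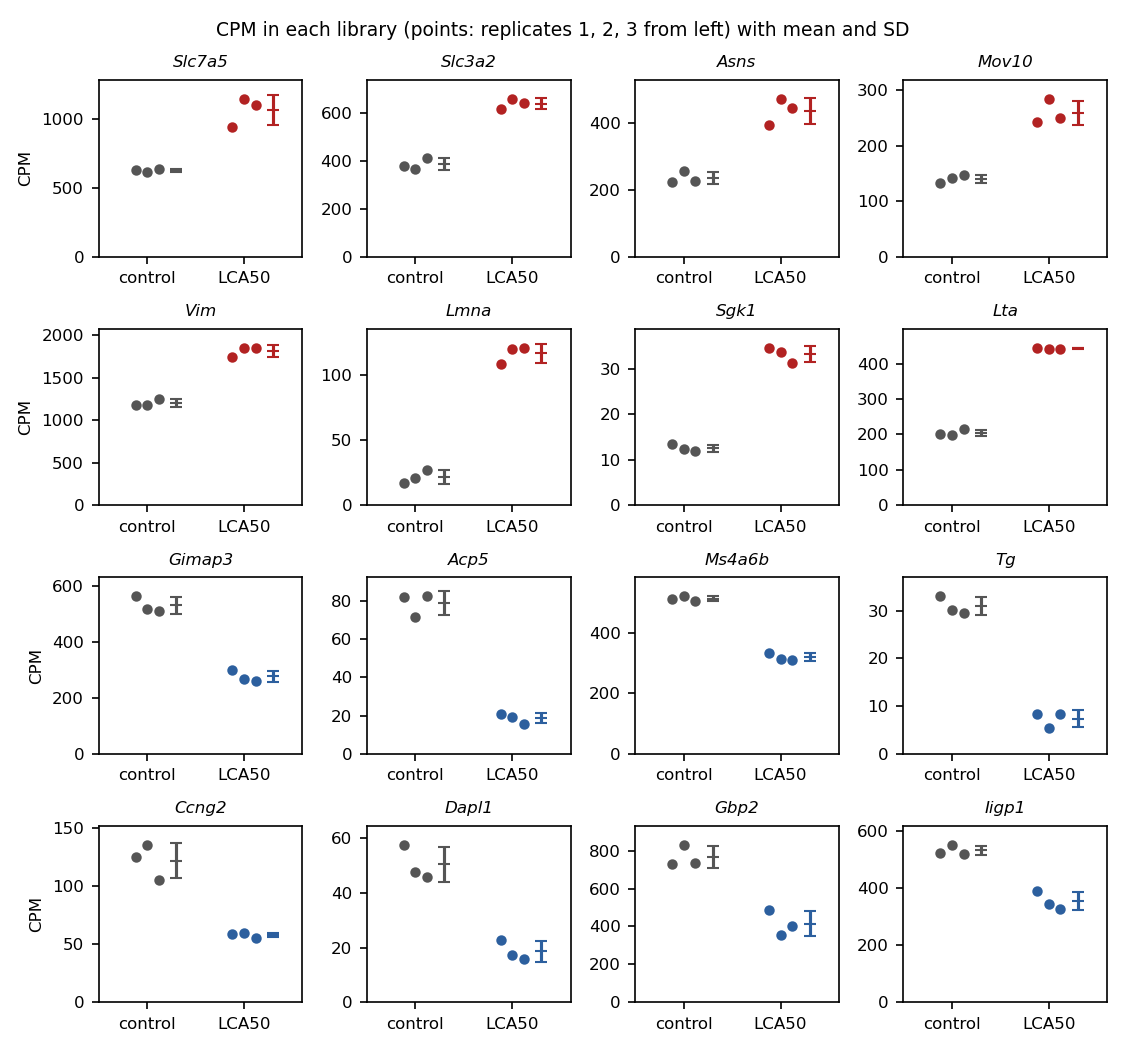
CPM of 16 genes in each control library (grey) and each LCA50 library (red where higher, blue where lower), with the mean and SD of the 3 beside the points; every vertical axis starts at 0. The 16 genes were chosen among those without overlap, so in each the LCA50 libraries lie outside the range of the controls. Lmna, Tg and Acp5 are the furthest apart in proportion.

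Many genes that supply the cell with amino acids and charged tRNA rose. Of 22 tested amino acid transporters 8 rose and 0 fell (median 0.34), and of 20 cytosolic aminoacyl-tRNA synthetases 11 rose and 0 fell (median 0.29). In the list of serine, asparagine, proline and one-carbon synthesis 8 of 23 rose and 1, the transaminase Got2, fell (median 0.16). Of 18 ATF4 and stress response regulators 5 rose and 1 fell (median 0.35). With background as a term these lists, in that order, held 4, 3, 6 and 3 genes called higher, and without LCA50 replicate 3 they held 7, 8, 8 and 4. In the fit with background 1 synthetase was called lower. Got2 was not called with background as a term.

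ATF4 binds a composite DNA element known as CARE together with C/EBP partners. The letters TGATGNAAT, on either strand, were searched from 250 bases before to 50 after each start in the RefSeq promoter table (GRCm38.p6). They occurred in 46 of the 9005 tested genes with an entry (0.511%) and in 0.965% of all 32851 promoters. The 4 lists above and that of transsulfuration and glutathione held 36 genes that rose. Of these, 26 had an entry and 5 held the letters (19.2%), against 0 of 46 genes with an entry that were not called. Over all genes with an entry, 5 of the 337 that rose (1.48%) and 2 of the 433 that fell (0.462%) held the letters. The 5 that rose were all members of these lists, so no risen gene outside the lists held the letters. Of the 7 called synthetases with an entry 3 held them. A match is a description of the letters, not a bound site. The 250 bases before the start are shown for 4 of these genes, to show where in the promoter the letters lie, with the match in capitals. They are chr7:126625471-126625720 (minus strand) for the stress cofactor Nupr1, chr11:120643749-120643998 (minus strand) for Pycr1, the last enzyme of proline synthesis, chr6:55037751-55038000 (plus strand) for the glycine synthetase Gars and chr8:111033592-111033841 (plus strand) for the alanine synthetase Aars, in GRCm38.p6, each written 5′ to 3′ along the gene.
Nupr1: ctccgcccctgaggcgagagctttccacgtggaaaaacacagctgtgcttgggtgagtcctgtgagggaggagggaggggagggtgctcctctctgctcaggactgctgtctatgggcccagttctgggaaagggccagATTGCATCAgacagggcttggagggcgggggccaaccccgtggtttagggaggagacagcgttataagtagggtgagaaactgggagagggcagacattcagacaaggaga
Pycr1: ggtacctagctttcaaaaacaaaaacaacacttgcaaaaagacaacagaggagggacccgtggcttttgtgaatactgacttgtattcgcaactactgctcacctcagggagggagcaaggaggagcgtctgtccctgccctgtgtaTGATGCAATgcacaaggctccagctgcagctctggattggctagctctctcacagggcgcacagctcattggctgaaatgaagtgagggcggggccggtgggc
Gars: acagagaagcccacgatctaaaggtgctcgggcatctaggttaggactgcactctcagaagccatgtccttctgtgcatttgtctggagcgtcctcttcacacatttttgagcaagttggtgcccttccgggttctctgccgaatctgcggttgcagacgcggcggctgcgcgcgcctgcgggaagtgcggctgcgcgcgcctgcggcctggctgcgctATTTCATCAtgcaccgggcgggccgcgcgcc
Aars: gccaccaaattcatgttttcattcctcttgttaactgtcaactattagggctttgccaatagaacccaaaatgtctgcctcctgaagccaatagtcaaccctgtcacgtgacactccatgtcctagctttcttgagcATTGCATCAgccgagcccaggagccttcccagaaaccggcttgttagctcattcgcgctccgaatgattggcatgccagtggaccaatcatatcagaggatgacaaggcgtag

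Nupr1, Gars and Aars hold the letters on the strand opposite to transcription and Pycr1 on the same strand. The match ended 103 bases before the start in Nupr1, 95 in Pycr1, 23 in Gars and 105 in Aars. Bases just after the start were found in transcripts of Nupr1, Pycr1 and Gars. For Aars they were found on neither strand, so its start and strand rest on the promoter table alone. Log2 fold changes with LCA50 were 2.55 for Nupr1, 1.42 for Pycr1, 0.34 for Gars and 0.38 for Aars, so genes with these letters differed widely in the size of their rise. Gars and Aars were not called with background as a term, and Nupr1 was called at 1.71. Elements for other pathways were counted the same way. The endoplasmic reticulum stress element ERSE, whose blocks CCAAT and CCACG stand 9 bases apart, occurred in 8 of 25 endoplasmic reticulum genes with an entry (32%) against 0.144% of tested genes and 0.119% of all promoters, and in 0 of the 4 members called. The ARE letters TGACNNNGC of NRF2 targets occurred in 10 of 23 redox genes (43.5%) against 17.2% of tested genes and 12.4% of all promoters. The SRE letters TCACNCCAC of SREBP targets occurred in 1 of 18 cholesterol genes (5.56%) against 1.4% of tested genes and 1.24% of all promoters.

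Asns, which makes asparagine (chromosome 6, 7675165 to 7693209), measured 223, 254 and 227 CPM in control and 394, 470.4 and 442 CPM in LCA50. Every treated library was above every control, 1.85-fold higher (0.89 ± 0.09, edgeR adjusted p = 1.55e-07). The mitochondrial folate enzymes Mthfd2 (1.47-fold) and Shmt2 (1.35-fold) and the proline enzyme Aldh18a1 (1.5-fold) rose as well. The cationic amino acid transporter Slc7a1 measured 111, 103 and 106 CPM in control and 156, 185 and 175 CPM in LCA50, 1.61-fold higher with groups apart. Slc7a3, another cationic transporter, was 3.1-fold higher, and the glycine transporter Slc6a9 was 3.92-fold higher. Slc6a9 was not called with background as a term (log2 1.25, edgeR adjusted p = 0.0917, from 1.97). Among synthetases, the cysteine enzyme Cars measured 176, 203 and 183 CPM in control and 257, 274 and 274 CPM in LCA50 (1.43-fold higher), and the asparagine enzyme Nars rose 1.3-fold. Synthetases of the mitochondrion reached no call, with 0 of 16 higher and 0 lower (median 0.15), Tars2 at 0.28 ± 0.09 (edgeR adjusted p = 0.0537) and Iars2 at 0.13 ± 0.09 (adjusted p = 0.427).

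Among the regulators, the mRNA of Atf4 itself measured 322, 288 and 309 CPM in control and 404, 470.0 and 452 CPM in LCA50. It rose by 0.53 ± 0.10 on the log2 scale (edgeR adjusted p = 0.00148) and lost the call with background as a term (0.33, adjusted p = 0.113). Chac1, which breaks down glutathione, measured 13.2, 10.8 and 9.91 CPM in control and 20, 37.6 and 33 CPM in LCA50 (2.67-fold higher). Nupr1 measured 3.92, 2.6 and 2.02 CPM in control and 9.87, 19.3 and 21 CPM in LCA50 (5.84-fold higher). In both genes LCA50 replicate 1 was the lowest treated library and still above the controls. The same held for the pseudokinase Trib3, at 51.2, 53.5 and 51.8 CPM in control and 133, 194 and 164 CPM in LCA50. It held too for Cth, which makes cysteine from cystathionine, at 3.1, 3 and 5.06 CPM in control and 19.5, 42 and 33.4 CPM in LCA50 (8.48-fold higher). Trib3 and Cth lost their calls with background as a term (log2 0.98 and 2.00, edgeR adjusted p = 0.238 and 0.108), and the leucine sensor Sesn2 (2.1-fold higher) kept it. The member that fell was Eif2ak3, which encodes the eIF2 kinase PERK (-0.51 ± 0.13, edgeR adjusted p = 0.00948). Chaperone and degradation genes of the endoplasmic reticulum rose in 2 of 33 cases (Herpud1 1.4-fold, Xbp1 1.15-fold) and fell in 2 (Selenok 1.51-fold, Sec61b 1.34-fold), with a median of -0.03. Of 15 heat shock and mitochondrial chaperones 4 rose and 0 fell (median 0.13), among them Hsph1 (1.23-fold), Hspa9 (1.28-fold) and Hsp90ab1 (1.15-fold). Eif2ak3, Xbp1, Sec61b, Hsph1 and Hspa9 were not called once background was a term.

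**Figure D3:**
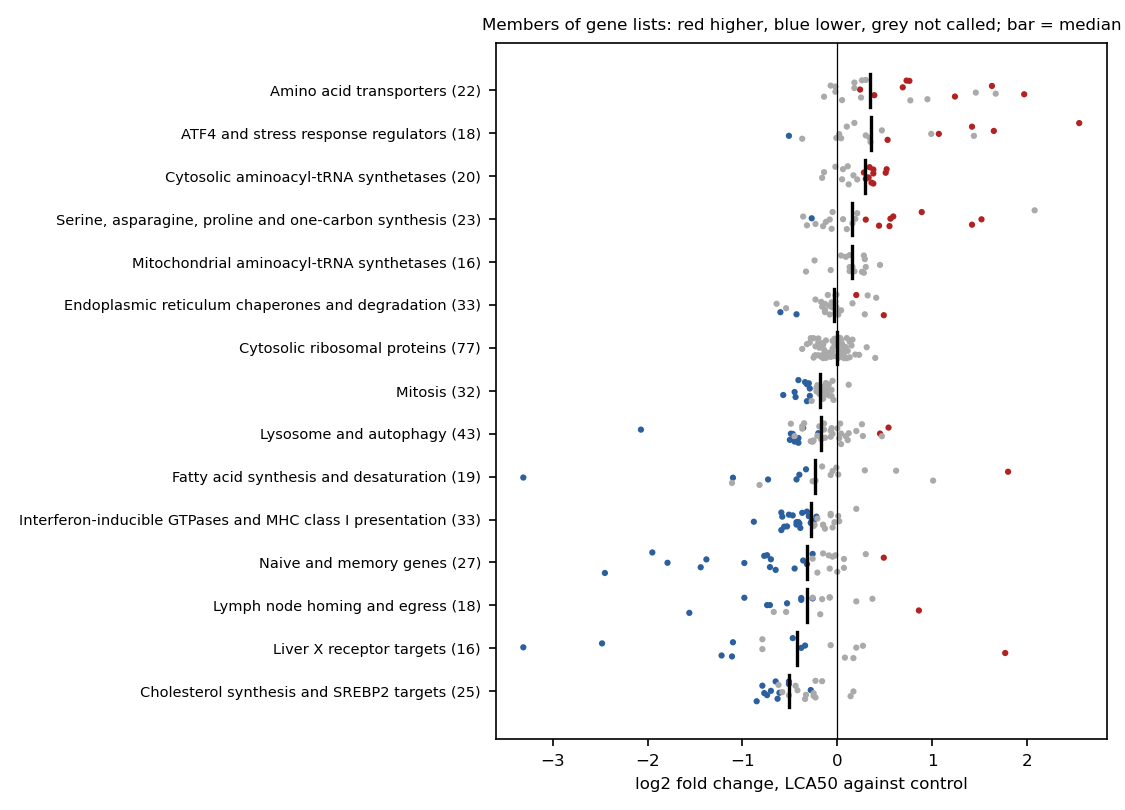
Log2 fold change of LCA50 against control for each tested member of 15 gene lists, with the number of members in brackets and a black bar at the list's median; red members rose, blue fell and grey were not called. Called members of the transporter, ATF4, synthetase and serine lists lie mostly right of 0 and those of the interferon GTPase, naive, homing and lipid lists mostly left, while the 77 ribosomal protein genes centre on 0 with none called.

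Around Gimap3, the GIMAP genes were examined as a family after their values had been seen. They form a cluster on chromosome 6 (48647186 to 48770851) and encode GTPases known to support the survival of naive T cells. Of 8 tested members 7 fell, with a median of -0.88 over the 8. The count was 7 without LCA50 replicate 3 and 6 with background as a term. Gimap4 measured 1140, 1161 and 1137 CPM in control and 624, 489.5 and 504 CPM in LCA50 (-1.09 ± 0.17, edgeR adjusted p = 0.00125). Gimap7 measured 411, 442 and 402 CPM in control and 209, 149 and 141 CPM in LCA50 (-1.33 ± 0.21, edgeR adjusted p = 0.00176). Gimap6 measured 389, 395 and 405 CPM in control and 216, 181 and 158 CPM in LCA50. In all 3 the treated libraries lay below the controls, with replicate 1 the highest of them. Gimap8, Gimap9 and Gimap5 fell by 0.68, 0.82 and 0.39 on the log2 scale. The member that lost its call with background as a term was Gimap5. Gimap1 was the exception, at 301, 263 and 308 CPM in control and 312, 277 and 249 CPM in LCA50, groups that overlapped (-0.06 ± 0.10, edgeR adjusted p = 0.777). Members of this family are similar in sequence and may share reads.

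Genes of the naive and memory state and of entry into lymph nodes fell. In the naive and memory list 15 of 27 fell and 1 rose (median -0.32), and in the list of lymph node homing and egress 8 of 18 fell and 1 rose (median -0.32). Klf2, S1pr1 and Ccr7 are among the members of both that fell. With background as a term 8 and 4 genes of the lists were called lower, and without LCA50 replicate 3 the counts were 12 and 7. Klf2, a transcription factor that keeps T cells quiescent, measured 72.7, 65.7 and 75.7 CPM in control and 42.1, 44 and 42 CPM in LCA50 (1.67-fold lower, edgeR adjusted p = 0.00168), every treated library being below every control. S1pr1, the receptor for leaving lymph nodes, was 1.64-fold lower, also without overlap. Itgb7, the beta chain of gut homing integrins, measured 846, 809 and 917 CPM in control and 584, 608 and 585 CPM in LCA50 (1.45-fold lower), and Itgb2, the beta chain of LFA-1, was 1.3-fold lower. Fut7, a fucosyltransferase that builds ligands for homing, went the other way, from 35.1, 28.8 and 30.3 CPM to 67.6, 49.8 and 53.1 CPM (1.81-fold higher). Its groups did not overlap. Ccr7 and Itgb2 lost their calls with background as a term.

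Of the naive and memory genes, Dapl1 measured 57.6, 47.7 and 45.9 CPM in control and 22.8, 17.3 and 15.8 CPM in LCA50 (2.71-fold lower). Il7r, the receptor chain for interleukin 7, was 1.62-fold lower, and Cd27, a costimulatory receptor of naive and memory cells, 1.71-fold lower. Ly6c2 measured 334, 319.5 and 356 CPM in control and 115, 69.1 and 77.9 CPM in LCA50 (3.86-fold lower) and lost its call with background as a term (log2 -1.28, edgeR adjusted p = 0.167). Art2b, an ADP-ribosyltransferase of the T cell surface, was 5.45-fold lower. Both Ly6c2 and Art2b have close paralogs that may share reads. The survival gene Bcl2 was the member that rose, from 441, 477 and 468 CPM to 573, 707 and 661 CPM (1.4-fold higher). All treated libraries of Bcl2 stood above the controls. Of the CD8 lineage markers, the co-receptor chain Cd8b1 measured 766, 754 and 753 CPM in control and 564, 479.5 and 478 CPM in LCA50 (-0.58 ± 0.08, edgeR adjusted p = 3.19e-06). The other chain, Cd8a, measured 666, 653 and 656 CPM and 602, 637 and 598 CPM (-0.10 ± 0.06, adjusted p = 0.314) and was not called. The CD3 chain Cd3g fell as well (-0.34 ± 0.10, edgeR adjusted p = 0.0236). Cd27, Bcl2 and Cd3g were also not called with background as a term (adjusted p = 0.139, 0.0504 and 0.506 in edgeR).

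Genes of the interferon-inducible GTPases (the Gbp and Irg families) and of antigen presentation on class I molecules fell in 20 of 33 cases and rose in 0 (median -0.28). In the fit with background 6 were called lower and without LCA50 replicate 3 17. Iigp1, a GTPase that attacks parasite vacuoles, measured 525, 552 and 521 CPM in control and 391, 345 and 329 CPM in LCA50. All treated libraries lay below the controls (-0.58 ± 0.08, edgeR adjusted p = 3.19e-06). Gbp2, a guanylate binding protein, measured 727, 830.3 and 736 CPM in control and 487, 355 and 404 CPM in LCA50 (1.84-fold lower). The nonclassical class I gene H2-T22 measured 169, 183 and 167 CPM in control and 127, 109 and 116 CPM in LCA50 (1.47-fold lower). The Gbp and class I genes have close paralogs that may share reads. Falls of the classical class I genes were smaller, B2m at -0.27 ± 0.06 (edgeR adjusted p = 0.00184) and H2-K1 at -0.22 ± 0.06 (adjusted p = 0.0253). Irf1, a transcription factor of this gene group, measured 547, 529 and 538 CPM in control and 440.3, 374 and 385 CPM in LCA50 (1.35-fold lower). Ifngr1, the ligand-binding chain of the interferon gamma receptor (chromosome 10, 19591949 to 19610229), measured 731, 742 and 739 CPM in control and 479, 380.0 and 429.5 CPM in LCA50, 1.72-fold lower (-0.78 ± 0.10, edgeR adjusted p = 3.97e-06). Neither gene had overlapping groups. In the separate list of genes stimulated by type I interferon 2 of 30 fell (Trim30a 1.42-fold, Ifi27l2a 2.3-fold) and 0 rose, with a median of -0.16 that was 0.02 with background as a term. In that fit B2m, H2-K1, Trim30a and Ifi27l2a were not called.

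Genes of lipid synthesis and sterol handling fell in part. Of 25 cholesterol synthesis genes and SREBP2 targets 11 fell and 0 rose (median -0.51). Of 16 liver X receptor targets 8 fell and 1 rose (median -0.42), and of 19 fatty acid synthesis genes 6 fell and 1 rose (median -0.23). The fit with background called 1, 3 and 1 of these genes lower, and that without LCA50 replicate 3 5, 6 and 2. Msmo1, an enzyme of sterol synthesis, measured 159, 158 and 152 CPM in control and 92.9, 93.8 and 101 CPM in LCA50. It was 1.63-fold lower (-0.70 ± 0.11, edgeR adjusted p = 4.07e-05) and was the cholesterol gene that kept its call with background as a term. Acat2 (1.57-fold) and the sterol carrier Stard4 (1.55-fold) fell and lost the call there.

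Abcg1, a sterol exporter and liver X receptor target, measured 21.9, 23.2 and 27.7 CPM in control and 6.87, 3.21 and 2.94 CPM in LCA50 (5.57-fold lower). The desaturase Scd1 measured 18.4, 19.4 and 18.2 CPM in control and 3.22, 0.402 and 2.03 CPM in LCA50 (9.93-fold lower). Its paralog Scd2 measured 767, 867 and 808 CPM in control and 439, 346 and 357 CPM in LCA50 (2.14-fold lower). All 3 genes had every treated library below the controls, and Scd2 lost its call with background as a term (log2 -0.61, edgeR adjusted p = 0.465). Abcg1 and Scd1 were called there at log2 changes of -1.85 and -2.68, from -2.48 and -3.31. Smpdl3a, a lipid phosphodiesterase, was 2.33-fold lower. Rxra, the partner of liver X, vitamin D and retinoid receptors, was the member that rose, from 6.2, 13.2 and 7.69 CPM to 18.7, 33.1 and 40.9 CPM (3.41-fold higher). Fatty acid oxidation genes reached no call (0 of 18 higher, 0 lower, median -0.15), with Acadl at -0.23 ± 0.09 and Acadvl at -0.17 ± 0.08 (edgeR adjusted p = 0.0878 and 0.192).

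Of the listed bile acid and retinoid receptors and bile salt transporters 13 passed the count filter and 12 did not. Gpbar1 and Nr1h4, the gene of the farnesoid X receptor, were among the latter. Besides Rxra, the retinoic acid receptor Rara rose, from 36.1, 33.4 and 36.8 CPM to 49.4, 54.8 and 56.5 CPM (1.51-fold higher), with no overlap between groups. The drug exporter Abcb1b was 1.32-fold lower and was not called with background as a term. Vdr was barely detected, at a mean of 1.42 CPM in control and 1.85 CPM in LCA50 (0.38 ± 0.58, edgeR adjusted p = 0.754).

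Effector genes went both ways. Of 17 tested effector cytokines 3 rose and 0 fell (median 0.54). Lta, lymphotoxin alpha, measured 199.9, 198 and 214 CPM in control and 446, 443 and 441 CPM in LCA50, 2.17-fold higher with narrow groups far apart. Tnf (1.44-fold) and Osm (1.45-fold) rose and lost their calls with background as a term. Ifng measured 3.92, 2.4 and 3.24 CPM in control and 11.6, 15.3 and 14.4 CPM in LCA50. These did not overlap, but the difference was not called (2.11 ± 0.65, edgeR adjusted p = 0.0602). Of 18 cytotoxic granule genes 4 fell, with Ctsc, which activates granzymes, at 1.36-fold and the granule proteoglycan Srgn at 1.42-fold, and 1 rose, Unc13d at 1.25-fold (median -0.19). Gzmb measured 6008, 6412 and 6246 CPM in control and 5798, 5373 and 5384 CPM in LCA50 and was not called (-0.17 ± 0.18, edgeR adjusted p = 0.633). Ctsc and Unc13d lost their calls once background was a term.

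Of 23 transcription factors of effector differentiation 5 rose and 4 fell (median 0.06), and with background as a term 5 were called higher and 3 lower. Eomes, a factor of memory CD8 cells, measured 98.1, 87.5 and 91.8 CPM in control and 147, 156 and 132 CPM in LCA50 (1.57-fold higher). Nfil3 was 1.51-fold higher and the aryl hydrocarbon receptor Ahr 2.37-fold higher. The repressor Hic1 measured 23.1, 10.6 and 22.4 CPM in control and 3.22, 3.82 and 2.26 CPM in LCA50 (5.96-fold lower). Hif1a, the factor of the hypoxia response, was 1.4-fold lower and Stat4, which relays interleukin 12, 1.45-fold lower. None of these 6 genes had overlapping groups. Targets of STAT5 rose in 7 of 20 cases and fell in 1 (median 0.22), the brake genes Cish (1.52-fold) and Socs1 (1.32-fold) among them. Neither brake gene was called with background as a term, and Hic1 was called at -1.92 there.

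Cytokine receptors fell in 5 of 23 cases and rose in 0 (median -0.04), and inhibitory receptors with Tox fell in 5 of 21 and rose in 2 (median -0.16). Ctla4, a receptor that competes with Cd28, measured 254, 217 and 231 CPM in control and 168, 145 and 133 CPM in LCA50 (1.57-fold lower), with groups apart. Btla was 1.98-fold lower and Cd5, a brake on T cell receptor signals, 1.57-fold lower, while Havcr2 was 1.77-fold higher and Tox, a factor of exhaustion, 1.96-fold higher. These 4 lost their calls with background as a term. Of 18 costimulatory receptors 2 rose (Tnfrsf9 and Tnfrsf1b) and 3 fell (Slamf6, Cd27 and Cd28). Tnfrsf9, a mark of activation also known as CD137, measured 384, 398 and 415 CPM in control and 596, 704 and 679 CPM in LCA50, above control in every library. Klrd1, a killer lectin-like receptor, measured 242, 249 and 235 CPM in control and 147, 124 and 122 CPM in LCA50 (1.85-fold lower). Klrk1, which encodes NKG2D, was 1.74-fold lower. The other tested members of that list, Klrc1 (-0.36 ± 0.13, edgeR adjusted p = 0.0796) and Klre1 (-1.16 ± 0.53, adjusted p = 0.185), were not called. Of 16 chemokines and their receptors 3 fell (Cxcr3 2.61-fold, Ccr7 1.2-fold, Xcl1 3.05-fold) and 1 rose (Ccr4 1.88-fold), none of them called with background as a term. Cxcr3 stood at a log2 change of -0.74 in that fit (edgeR adjusted p = 0.259, from -1.39). Tnfrsf1b, Cd27, Cd28 and Klrk1 were not called in it either. Xcl1 was scarce, at 16.7, 5.59 and 4.05 CPM in control and 3.43, 1.61 and 3.61 CPM in LCA50 (edgeR adjusted p = 0.049). Its control replicate 1 stood far above the other controls, which lay close to the treated libraries.

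Of 21 Nr4a receptors and activation transcription factors 3 rose (Fosl2, Jund and Ier5) and 1, Batf, fell (median 0.10). Fosl2, an AP-1 subunit, measured 12.2, 15.2 and 15 CPM in control and 30.3, 30.9 and 26.4 CPM in LCA50 (2.07-fold higher), with every treated library above the controls. NF-kB subunits and inhibitors reached no call (0 of 17 higher, 0 lower, median 0.18), with Nfkb1 at 0.03 ± 0.08. In the T cell receptor signalling list 3 fell and 2 rose among 28 (median -0.06). Themis, a regulator of thymic selection, was 1.42-fold lower and Dgka, a lipid kinase that removes diacylglycerol, 1.37-fold lower, both called with background as a term. The adaptor Pag1 (1.63-fold higher) lost its call there. Of 14 MAPK phosphatases and Sprouty genes 3 rose and 1 fell (median 0.23), Dusp1 at 1.96-fold and Spry1 at 1.85-fold. Neither of these, nor Ier5 or Batf, was called with background as a term.

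Iron, redox and lysosome lists had members that moved in opposite directions. Of the ferritin chains, Ftl1 measured 280.4, 231 and 298 CPM in control and 392, 431 and 383 CPM in LCA50 (1.49-fold higher). Fth1 measured 1243, 1211 and 1294 CPM in control and 1578, 1589 and 1487 CPM in LCA50 (1.24-fold higher). Tfrc, the receptor for iron uptake, measured 615, 708 and 566 CPM in control and 366, 415 and 415 CPM in LCA50 (1.58-fold lower). None of these groups overlapped, and reads of both ferritins may be shared with processed pseudogenes. Of 27 NRF2 and redox genes 6 rose and 4 fell (median 0.11), and with background as a term 2 were called higher. The glutathione synthesis genes Gclm (1.69-fold) and Gclc (1.48-fold), the thioredoxin reductase Txnrd1 (1.31-fold) and the heme-degrading enzyme Hmox1 (2-fold) rose. Txn1 (1.22-fold), Prdx2 (1.19-fold) and Pgd (1.22-fold) fell. Txnrd1, Hmox1, Txn1, Prdx2 and Pgd were not called with background as a term. Of 43 lysosome and autophagy genes 9 fell and 2 rose (median -0.17). Acp5 and the cathepsins Ctsa (1.41-fold) and Ctsb (1.33-fold) fell, and the calcium channel Mcoln1 (1.37-fold) and the factor Tfe3 (1.46-fold) rose. Of these 1, Acp5, was called lower with background as a term and 0 higher.

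Of 21 p53 targets 5 fell and 1, Sesn2, rose (median -0.13). Ccng2, a cyclin of growth arrest, measured 125, 135 and 105 CPM in control and 58.4, 59.3 and 55.5 CPM in LCA50 (-1.08 ± 0.12, edgeR adjusted p = 7.99e-08). Trp53inp1 was 2.03-fold lower and the death receptor Fas 1.69-fold lower, both without overlap and called with background as a term, as was Ccng2. In the Bcl2 family Bcl2 and Bcl2l1 (1.45-fold) rose and the mitophagy gene Bnip3l (1.69-fold) and Bcl2a1b (1.66-fold) fell, of 19 tested. With background as a term Bnip3l was called and Bcl2, Bcl2l1 and Bcl2a1b were not. In the cytoskeleton and adhesion list 7 of 35 rose and 3 fell (median 0.05). Besides Vim, the capping protein Capg (1.38-fold) rose, and so did the adhesion kinase Ptk2, from 2.27, 2.2 and 1.62 CPM to 6.65, 8.04 and 12 CPM (4.33-fold). S100a10 (1.5-fold), Anxa5 (1.45-fold) and Tagln2 (1.19-fold) fell. Ptk2 was not called with background as a term (log2 1.13, edgeR adjusted p = 0.271, from 2.11), nor were Anxa5 and Tagln2. In the nuclear envelope list Lmna rose, while Lbr, the lamin B receptor, fell from 801, 1024 and 916 CPM to 689.7, 712 and 676 CPM (1.32-fold). No other of its 17 members was called.

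Of 77 cytosolic ribosomal protein genes 0 rose and 0 fell (median 0.00), with Rps3 at -0.20 ± 0.08 and Rpl4 at 0.02 ± 0.06, and of 16 small nucleolar RNA host genes 0 rose and 0 fell. Of 77 mitochondrial ribosomal protein genes 1, Mrpl27, fell (1.4-fold). Respiratory chain subunits fell in 5 of 50 cases (median -0.11) and in 0 with background as a term. Glycolysis and hypoxia genes fell in 8 of 34 and rose in 1 (median -0.09). The pyruvate dehydrogenase kinase Pdk1 measured 262, 274 and 255 CPM in control and 187, 204 and 179.5 CPM in LCA50 (1.39-fold lower), with groups apart. Aldoc was 2.25-fold lower and Tpi1 1.22-fold lower, while Vegfa was 1.53-fold higher. Mitosis genes fell in 10 of 32 cases and rose in 0 (median -0.18). Nusap1, a spindle protein, measured 304, 326 and 295 CPM in control and 237, 227 and 214 CPM in LCA50, below control in every library. With background as a term 2 of the mitosis genes, Nusap1 and Hmmr, were called, and without LCA50 replicate 3 3. Over all tested genes 4.93% fell and 3.66% rose. Close to those shares, DNA replication genes fell in 2 cases (Tyms and Rrm1) and rose in 1 (Pold1) of 39. These 3 genes, Mrpl27, Tpi1 and Vegfa were not called with background as a term.

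The doses were compared directly, LCA50 against LCA10, with no control library in the contrast. At 50 µM 93 genes were higher (0.798%) and 171 lower (1.47%) than at 10 µM. Of these 264 genes 191 were also called against control, all in the same direction. Both contrasts share the 3 LCA50 libraries, which favours the same direction, so the calls are not independent. Slc7a5 measured 750.5, 771 and 705 CPM at 10 µM, below all 3 libraries at 50 µM (0.51 ± 0.07, edgeR adjusted p = 3.93e-05). Asns measured 285, 309 and 274 CPM, Slc3a2 463, 502 and 431 CPM and Shmt2 667, 674 and 621 CPM at 10 µM, all likewise below the libraries at 50 µM. The 5 upward genes with the smallest p in this contrast were these and Trim35, a ubiquitin ligase gene. Their LCA10 changes against control were 0.25 for Slc7a5, 0.27 for Slc3a2, 0.30 for Asns, 0.03 for Shmt2 and 0.01 for Trim35, none of them called. Gimap3 measured 368, 347 and 391 CPM at 10 µM, between the other groups, and differed from both (-0.53 ± 0.07 against control, edgeR adjusted p = 0.000198, and -0.41 ± 0.07 for LCA50 against LCA10, adjusted p = 0.000925). Lmna measured 78.3, 72.5 and 43.2 CPM at 10 µM, higher than control (1.58 ± 0.26, edgeR adjusted p = 0.012) and not called between the doses (0.85 ± 0.22, adjusted p = 0.063). The contrast of doses held 29 calls with background as a term. It held 75 and 87 calls without LCA50 replicate 2 or 3, and 155 and 89 without LCA10 replicate 2 or 3.

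Interferon genes differed between the doses in both lists. The interferon-inducible GTPase and class I list held 17 of 33 genes that were lower at 50 than at 10 µM (median -0.28), and the list of interferon-stimulated genes 17 of 30 (median -1.03). Over all tested genes 1.47% were lower in this contrast. With background as a term the whole contrast held 29 calls, and calls within these lists were not counted in that fit. For LCA10 against control, where 0.215% of genes were called higher and 0.172% lower, the second list held 5 higher and 0 lower (median 0.71) and the first 0 and 0 (median 0.00). Xaf1 measured 60.1, 65.5 and 62.9 CPM in control, 84.1, 126 and 95.1 CPM at 10 µM and 55.1, 61.1 and 43.6 CPM at 50 µM. Ifih1, the gene of the RNA sensor MDA5, measured 15.7, 19.2 and 16.6 CPM in control, 30.6, 29.5 and 25 CPM at 10 µM and 12.4, 13.1 and 9.26 CPM at 50 µM. In both genes the 10 µM libraries stood above all others, and in Xaf1 control and 50 µM overlapped. Between the doses Xaf1 differed by -0.93 ± 0.14 and Ifih1 by -1.28 ± 0.19 on the log2 scale (edgeR adjusted p = 0.000186 and 0.000186), and neither was called for 50 µM against control. Iigp1 measured 490.1, 518 and 516 CPM at 10 µM and Pml, the organiser of nuclear bodies, 251, 292 and 239.8 CPM. For these genes and Ifi203 all 3 libraries at 50 µM lay below those at 10 µM and below control. The call of Pml for 50 µM against control was lost with background as a term.

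**Figure D4:**
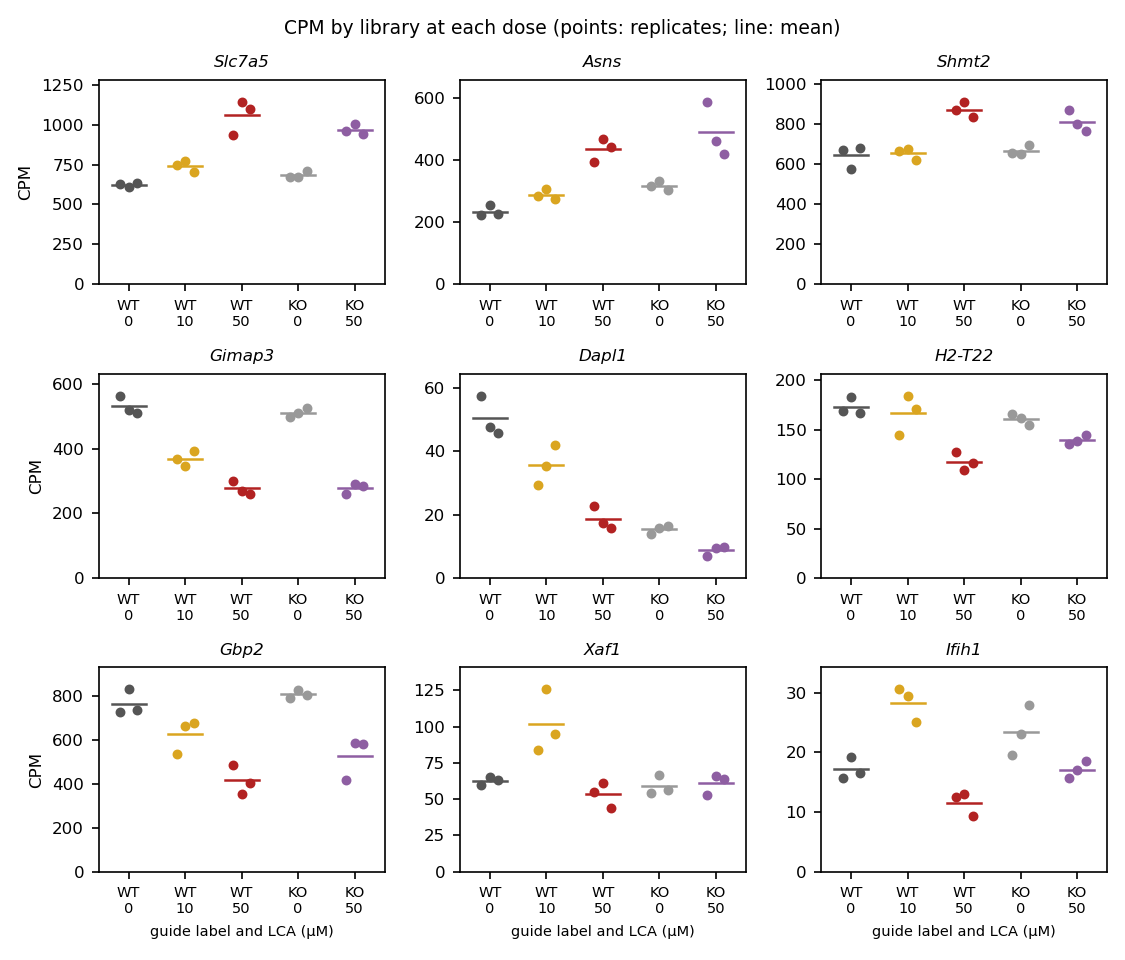
CPM of 9 genes in each library of the scrambled-guide cells (WT) at 0, 10 and 50 µM LCA and of the KO-labelled cells at 0 and 50 µM, with a line at each group's mean and every vertical axis from 0. Across the WT doses the means of Slc7a5 and Asns go up and those of Gimap3, Dapl1 and Gbp2 go down, H2-T22 is low and Shmt2 high at 50 µM only, and Xaf1 and Ifih1 are highest at 10 µM.

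In the KO-labelled cells the same dose raised 341 genes (2.93%) and lowered 399 (3.42%) against their own controls. The difference between the KO and WT responses was tested directly, and none passed adjustment in edgeR (0 genes, 0%). Of the 11651 genes tested, 729 had an unadjusted p below 0.05. With no difference in any gene, a share of about 0.05 of them would lie below that threshold. DESeq2 called 1, Thbs1. Counts in KO and WT were, side by side, 5 and 8 amino acid transporters higher, 8 and 11 synthetases higher and 10 and 11 cholesterol genes lower. The naive and memory list had 11 and 15 lower, the interferon-inducible GTPase and class I list 11 and 20, and the GIMAP cluster 7 and 7. Some lists had as many or more genes called higher in KO. These were, in KO and WT, ATF4 and stress response regulators (7 and 5), effector cytokines (7 and 3), STAT5 targets (9 and 7) and serine synthesis (8 and 8), among others. Differences between such counts were not tested. Thbs1, which encodes thrombospondin and is abundant in platelets, had the smallest p for a difference. It measured 10.5, 7.73 and 8.28 CPM in KO control and 44.6, 22.6 and 10.6 CPM in KO LCA50, against 15.3, 17 and 18 CPM in WT control and 7.72, 10.7 and 5.42 CPM in WT LCA50. The KO response was 2.60 ± 0.48 higher on the log2 scale (95% interval 1.61 to 3.60, edgeR adjusted p = 0.172), with KO LCA50 replicate 3 close to its controls. Replicate 1, the highest, also held the most receptor background of the KO libraries (164 CPM). With background as a term the difference of Thbs1 was 2.85 and passed (edgeR adjusted p = 0.0226). It passed in edgeR also at 1.98 without KO LCA50 replicate 1 (adjusted p = 0.0226) and at 2.99 without KO LCA50 replicate 3 (adjusted p = 1.87e-05). The platelet gene Pf4 measured 3.36, 0 and 4.39 CPM in KO control and 0.953, 0.396 and 3.53 CPM in KO LCA50, against 12.4, 35.9 and 29.5 CPM in WT control and 26.8, 13.3 and 2.94 CPM in WT LCA50, and its part was not tested.

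The next smallest p-values belonged to 9930014A18Rik (-1.56), AA467197 (0.48), Cox7a2 (0.48) and Zfp553 (-0.80), each with an edgeR adjusted p of 0.583 for the difference. For Gimap3 the difference was 0.06 (95% interval -0.15 to 0.27), for Slc7a5 -0.26 (-0.45 to -0.08), for Dapl1 0.63 (0.04 to 1.23) and for Lmna -0.19 (-0.92 to 0.54). The intervals of Slc7a5 and Dapl1, which are not adjusted, leave out 0, and neither difference passed adjustment (edgeR adjusted p = 0.728 and 0.793).

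All 1000 genes called for 50 µM against control kept their direction with background as a term, and 767 had a smaller change there. Of the 1000, 235 kept the call, Slc7a5, Asns, Gimap3 and Lmna among them. Called lower with the term were 1 cholesterol gene (11 without it), 2 mitosis genes (10) and 6 interferon-inducible GTPase and class I genes (20). Called higher were 3 synthetases (11 without it). Background moved with treatment in these 6 libraries, and its part in the changes that shrank was not tested.

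**Figure D5:**
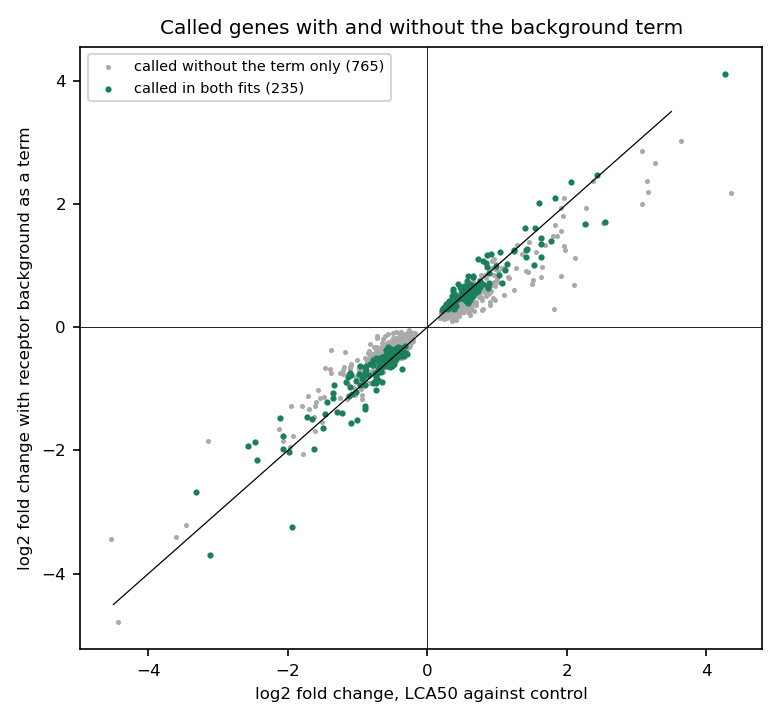
Log2 fold change of the 1000 called genes with receptor background as a term of the model (vertical axis) against that without it (horizontal axis); the diagonal marks equal values. Green points are the 235 genes called in both fits and grey points those called without the term only; every point keeps its sign, and 767 lie nearer to 0 on the vertical axis than on the horizontal one.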

How the data were processed

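Raw read counts per gene in 18 libraries were deposited by the authors in 1 table. STAR, HOMER and DESeq2 and the build GRCm38 (mm10) were named per the submitters' processing notes; versions, counting rules and strand are not given in the sources used here. From the counts as deposited, edgeR 4.0.16 in R 4.3.3 (limma 3.58.1) kept genes by filterByExpr with groups, scaled libraries by TMM and fitted 1 mean for each of 6 groups of 3 by robust quasi-likelihood over all 18 libraries. Genes with a Benjamini-Hochberg adjusted p below 0.05 were called. The biological coefficient of variation was 0.0984 and the median standard error 0.155. The steps were tested on simulated data. Alternatives were DESeq2 1.42.0, other scaling and filters, receptor background as a term, a replicate block and leaving out each library. Same-numbered libraries did not deviate together (r = 0.04, -0.01 and -0.10), and the main fit used no pairing. Such correlations over all genes cannot exclude that same-numbered libraries share an animal or culture.

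Named genes were Nr4a1; called genes with a mean of at least 10 CPM, no overlap and a non-predicted symbol, as the 12 smallest p each way, the 8 largest changes each way and, from 300 CPM, the 6 largest each way; per list up to 3 called members each way with the smallest p, or its 2 members of highest CPM if it had no call; any member of a list of at most 12; and the 5 smallest p for each way of the dose contrast and for the KO difference. Further genes were the printed promoters and cell markers. The GIMAP genes other than Gimap3 and Gimap4, and B2m, H2-K1, Klf2, S1pr1, Ifng, Gzmb, Vdr and Pf4, were chosen after their values were seen. The comparison, the lists and the rules were chosen with earlier results of these data known. Values of 3 genes are not reported here.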

Additional observations from a re-analysis of the deposited data

How the results depend on the processing

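For LCA50 against control (1000 genes called) DESeq2 gave 1070, DESeq2 size factors 1000, no filter 1102, a mean of at least 5 CPM 1005, only the groups compared 1198 and the replicate block 930, all within 1.5 times. The count was 272 with receptor background as a term and, in alternatives added after seeing the data, 339 with its log2 and 883 without LCA50 replicate 3 and KO LCA50 replicate 1. Leaving out each library gave 522 to 1027. For LCA50 against LCA10 (264) the calls numbered 448 with no filter, 485 with only the groups compared, 29 with background, 66 with its log2, 252 with the replicate block and 75 to 363 leaving out each library. For the KO difference (0) they numbered 1 by DESeq2 (Thbs1), 3 with no filter (Tmsb10, Thbs1 and Srgn), 6 with background (Tnfrsf4, Ero1l, Lef1, Thbs1, Tspan13 and Ube2l6), 5 with its log2, 0 with the replicate block and 0 to 6 leaving out each library, with 6 without KO LCA50 replicate 1 and 1 without KO LCA50 replicate 3; these genes are named after their values were seen. Of 196 named genes 171 were called. Of these, 88 kept the call in every alternative, 81 lost it with background and 54 lost it in some fit without a library. None of the 171 changed direction in an alternative. Some named genes that were not called did change sign, such as Nfkb1 (log2 0.03, and -0.01 with background). List medians that changed sign by more than the spread between replicates were, with background and then its log2, MAPK phosphatases (-0.02 and -0.04), cytotoxic granule genes (0.05 and 0.03) and T cell receptor signalling (0.04 and 0.04); with background alone, cytokine signalling brakes (0.09) and interferon-stimulated genes (0.02); and, leaving out libraries, transsulfuration (-0.11 to 0.06, lowest without LCA50 replicate 1), nuclear envelope genes (-0.07 to 0.02, lowest without LCA50 replicate 1), chemokines (-0.19 to 0.11, highest without control replicate 1) and cytoskeleton genes (-0.01 to 0.06, lowest without control replicate 1). Smaller changes of sign, within that spread, occurred in these and other lists whose medians lay within 0.03 of 0; with background, transsulfuration was at -0.02 and mitochondrial ribosomal proteins at 0.06. The causes were not tested. With 3 libraries a group and a median standard error of 0.155, small changes of scarce genes are not resolved.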
